A study of Mus musculus with 141 samples.

Results

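Alveolar type 1 (AT1) cells are the wide, very thin epithelial cells that line most of the gas-exchange surface of the lung. Each one spreads over neighbouring capillaries, shares a fused basement membrane with the endothelium and forms tight junctions with the cuboidal alveolar type 2 (AT2) cells, which make surfactant and can give rise to new AT1 cells. AT1 cells are known for the receptor for advanced glycation end products (*Ager*), for caveolae, for water and sodium channels and for type IV collagen. Here they were taken as the cells with at least 5000 CPM of *Ager*, a gene that is abundant in AT1 cells, and 64 of 141 cells met this limit (45.4%, Clopper-Pearson 95% interval 37 to 54). CPM are the reads of a gene per 1000000 reads on all genes, either in a single cell or in the sum of a set of cells.

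The cells came from 1 male ACID;R26tdTomato mouse of 4 months of the strain 129SV in the labels, 129S6/SvEvTac in the study's methods. This mouse carried 1 copy of a Cre-IRES-DsRed cassette in exon 1 of *Aqp5*, the gene of a water channel, and 1 copy of a *tdTomato* reporter at the ROSA26 locus behind a stop sequence flanked by loxP sites, so that *tdTomato* marked any cell in which *Aqp5* had driven Cre at some time. Lung cells without surface CD31 and CD45 and with E-cadherin and *tdTomato* were sorted, single cells were caught on a Fluidigm C1 chip with numbered columns and rows, and their RNA was sequenced. All groups below are cells of this 1 mouse, so that no replicate error could be had, no test was made and no p-value is given. A gene was compared when it had at least 50 CPM in the higher of 2 sums of cells, and it is called higher or lower when the CPM of the sums differed at least 4-fold. Ranges given for CPM and log2 ratios are exact 95% intervals (Poisson and binomial) and cover only the counting error of reads taken as independent. Reads copied by PCR are not independent molecules, and the spread between cells and between mice is not covered, so that these ranges are too narrow. Clopper-Pearson intervals of shares take the cells as independent and do not cover a difference between mice.

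The labels name every one of the 141 cells as AT1, which the counts did not bear out. *Ager* was below 5000 CPM in 77 cells, and of these 25 had at least 20000 CPM of the surfactant gene *Sftpc* (AT2-like), 13 had at least 100000 CPM of the secretoglobin gene *Scgb1a1* (club-like), 19 had at least 3 of 7 ciliated markers above 100 CPM (ciliated-like) and 20 met none of these limits. Of the 64 AT1 cells, 45 were among the 92 cells with a share of mitochondrial reads under 0.15. Total reads in the AT1 cells were 91402, 426602 and 1022879 (lowest, median and highest), and the genes with a read numbered 1163, 2706 and 4396. The remaining cells had 108530, 414982 and 2170760 reads, so that the medians were close. The AT1 cells came from 19 columns of the chip, 34 of them from the first 10 columns and 30 from the rest, and no pair of cells had identical counts.

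Few cells lay near the limit on *Ager*. The 3 AT1 cells with the least *Ager* had 5678, 7681 and 9335 CPM, and the 3 cells just outside had 4696, 2527 and 2030 CPM. The cell at 4696 CPM also had 4189 CPM of *Akap5* and 2811 CPM of *Clic5* beside 8718 CPM of *Sftpc*, with 35.8% of its reads on mitochondrial genes, and the other two just outside had 107946 and 83214 CPM of *Sftpc*. Of the 20 remaining cells with most *Ager*, 16 were AT2-like. The other markers given for these cells, *Hopx*, *Rtkn2*, *Clic5*, *Akap5* and *Col4a3*, were all above 100 CPM together with *Ager* in 44 of 64 cells (68.8%, Clopper-Pearson 95% interval 55.9 to 79.8) and in 0 of the 77 remaining cells.

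**Figure D1:**
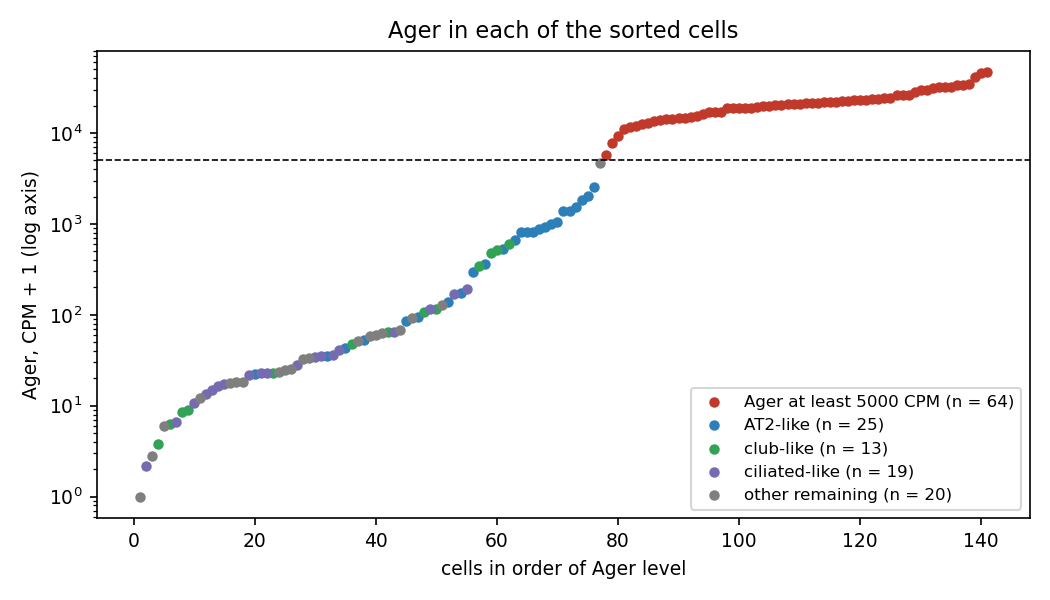
Ager in each cell as CPM + 1 on a log axis, with the cells in order of their Ager level and coloured by class (the dashed line is 5000 CPM). The 64 cells above the line run from 5678 to 46915 CPM, and 16 of the 20 cells next below it are AT2-like.

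The promoters of the genes that carry the description are given first, as the reference reads them (RefSeq, GRCm38.p6, 250 bases before to 50 after a transcript's start, written 5′ to 3′ on the gene's strand). *Ager* and *Hopx* are the marker genes with the highest CPM in the summed AT1 cells. *Col4a3* and *Col4a4* are collagen chains that start back to back, and *Scnn1b* and *Scnn1g* are neighbouring subunits of the epithelial sodium channel. Capitals in the *Hopx* and *Scnn1g* windows mark the letters CACTTG, the core of the motif of NKX2-1, a lung transcription factor. In the *Col4a4* window capitals mark the 71 bases between the annotated starts of *Col4a4* and *Col4a3*, which are read in opposite directions.
Ager promoter, chr17:34597600-34597899, plus strand: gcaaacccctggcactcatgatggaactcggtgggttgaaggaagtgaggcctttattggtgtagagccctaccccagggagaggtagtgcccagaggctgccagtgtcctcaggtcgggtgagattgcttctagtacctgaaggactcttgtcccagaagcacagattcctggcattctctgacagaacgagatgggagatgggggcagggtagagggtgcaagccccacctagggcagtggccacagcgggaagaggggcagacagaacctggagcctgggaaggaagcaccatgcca
Hopx promoter, longer transcript, chr5:77115074-77115373, minus strand: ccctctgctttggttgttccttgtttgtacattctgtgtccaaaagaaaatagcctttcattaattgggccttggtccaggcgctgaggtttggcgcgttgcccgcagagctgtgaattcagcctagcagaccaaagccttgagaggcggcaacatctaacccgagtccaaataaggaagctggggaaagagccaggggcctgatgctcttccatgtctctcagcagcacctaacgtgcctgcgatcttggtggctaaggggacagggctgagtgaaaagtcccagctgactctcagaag
Hopx promoter, shorter transcript, chr5:77095218-77095517, minus strand: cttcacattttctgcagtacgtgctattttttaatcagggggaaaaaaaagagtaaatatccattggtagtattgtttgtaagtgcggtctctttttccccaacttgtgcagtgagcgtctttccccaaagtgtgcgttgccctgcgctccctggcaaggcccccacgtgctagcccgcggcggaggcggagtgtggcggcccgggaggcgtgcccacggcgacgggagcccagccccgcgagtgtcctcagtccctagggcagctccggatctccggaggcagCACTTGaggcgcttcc
Col4a4 and Col4a3 shared promoter, chr1:82586800-82587099, minus strand: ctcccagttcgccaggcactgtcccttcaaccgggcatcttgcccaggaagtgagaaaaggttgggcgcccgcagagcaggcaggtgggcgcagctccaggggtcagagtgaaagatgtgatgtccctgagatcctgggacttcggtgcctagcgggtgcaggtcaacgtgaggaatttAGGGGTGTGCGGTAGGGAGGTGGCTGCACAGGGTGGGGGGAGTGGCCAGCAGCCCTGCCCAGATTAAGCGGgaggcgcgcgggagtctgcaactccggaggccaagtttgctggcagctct
Scnn1b promoter, chr7:121864788-121865087, plus strand: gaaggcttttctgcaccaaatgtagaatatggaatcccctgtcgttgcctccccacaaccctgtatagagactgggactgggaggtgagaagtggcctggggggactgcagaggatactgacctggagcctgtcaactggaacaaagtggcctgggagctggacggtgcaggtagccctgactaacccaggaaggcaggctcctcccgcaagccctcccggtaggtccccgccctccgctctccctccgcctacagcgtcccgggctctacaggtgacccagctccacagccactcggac
Scnn1g promoter, chr7:121734229-121734528, plus strand: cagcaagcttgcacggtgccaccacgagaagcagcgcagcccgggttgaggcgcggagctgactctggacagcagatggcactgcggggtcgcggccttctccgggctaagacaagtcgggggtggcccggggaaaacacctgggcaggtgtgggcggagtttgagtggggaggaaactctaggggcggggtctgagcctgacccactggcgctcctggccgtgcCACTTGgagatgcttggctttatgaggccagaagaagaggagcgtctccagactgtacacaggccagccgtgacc

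Of the 30 genes that lead the AT1 cells by ratio (below), 24 had a promoter window in this set. The letters CACTTG stood on either strand in at least 1 window of 6 of the 24 genes (25%). Of the 3313 genes compared that had a window, the same held for 436 (13.2%). They were also found for 98 of 654 genes higher in AT1 cells (15%) and for 72 of 443 lower genes (16.3%). GGAATG, the motif of the TEAD factors of the Hippo pathway, was found for 4 of the 24 genes (16.7%) and for 14.5% of the 3313. TGANTCA, the AP-1 motif, was found for 4 (16.7%) and for 6.34%. FOXA letters (TGTTTAC) were found for 1 of the 24 (4.17%) and for 3.26% of the 3313, and GATA letters (AGATAA) for 2 (8.33%) and for 6.91%. These are matches of letters in a short window, several of the genes have more than 1 window, and nothing was measured at these places.

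*Ager*, a pattern recognition receptor of the immunoglobulin family (chromosome 17, 34597862 to 34600936, plus strand), set the rule, and its values are given as a description. It had 5678, 20847 and 46915 CPM (lowest, median and highest) in AT1 cells and 0, 57.9 and 4696 CPM in the others. In the summed counts it took 2.22% of all AT1 reads and 0.0284% of the reads of the other cells. Of the nuclear genes only the noncoding RNA *Malat1* had more reads in AT1 cells.

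*Hopx*, an atypical homeodomain protein that does not bind DNA itself, had 696, 4884 and 11574 CPM in AT1 cells and 0, 7.11 and 3345 CPM in the remaining cells. Its ranges overlapped, but 0 of 77 remaining cells passed the AT1 median. The log2 ratio of the sums was 5.42 (5.38 to 5.45). *Rtkn2*, a rhotekin that binds small GTPases, had 8.18, 1623 and 6549 CPM in AT1 cells and 0, 1.01 and 471 CPM in the others. This was the largest ratio of the 6 markers, with 1784 against 5.13 CPM and a log2 ratio of 8.44 (8.25 to 8.64). Every AT1 cell had a read of both genes, the lowest of *Rtkn2* being at only 8.18 CPM.

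*Clic5*, a chloride intracellular channel family protein that links the membrane to ezrin and actin, had 17.1, 3122 and 11856 CPM in AT1 cells against 0, 5.64 and 2811 CPM outside. *Akap5*, which anchors protein kinase A at the membrane, had 0, 1660.4 and 11459 CPM against 0, 1.45 and 4189 CPM, and the highest value outside was in the 1 cell just under the limit on *Ager*, which held 71.4% of the *Akap5* reads of all remaining cells. *Col4a3*, a type IV collagen chain, had 0, 736 and 2864 CPM against 0, 0 and 409 CPM. No read of *Akap5* was found in 1 AT1 cell and none of *Col4a3* in 3. The log2 ratios of the sums were 5.20 for *Clic5*, 5.83 for *Akap5* and 7.17 for *Col4a3*, and with only cells of a mitochondrial share under 0.15 they were 5.35, 9.96 and 6.99. Per kilobase of summed exons the AT1 levels were 10388 CPM for *Ager*, 3649 for *Hopx* and 462 for *Clic5*. They were 322 for *Rtkn2*, 265 for *Akap5* and 90.8 for *Col4a3*. Such values rank genes only where reads rise with exon length, which was not tested for these libraries.

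The reads of AT1 cells were less concentrated in a few genes than those of the AT2-like and club-like cells. Part of this was fixed by rule, since a high level of *Sftpc* or *Scgb1a1* chose these classes. *Sftpc* alone took 13.1% of AT2-like reads and *Scgb1a1* 30.4% of club-like reads. The 10 nuclear genes with most reads took 10.6% of all reads in AT1 cells, 26.6% in AT2-like cells (led by *Sftpc*), 42.6% in club-like cells (led by *Scgb1a1*) and 10.6% in ciliated-like cells. Mitochondrial genes took 12.8% in AT1 cells and 11.9% in all remaining cells. Ribosomal protein genes took 1.34% of AT1 reads against 3.52%, and long noncoding genes 3.88% against 1.75%. *Malat1*, a nuclear noncoding RNA, alone took 3.11% in AT1 cells and 1.12% in the others, with 2148, 27738 and 88327 CPM per AT1 cell against a median of 9319.8 CPM outside. *Neat1*, the noncoding RNA of paraspeckles, was higher at 3066 against 375 CPM, log2 ratio 3.03.

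After *Malat1* and *Ager*, the nuclear genes with most reads in AT1 cells included *Prdx6*, *Hopx*, *Ahnak*, *Sparc*, *Actb*, *Tmsb4x*, *Clic5*, *Vegfa*, *Emp2*, *Timp3*, *Pmp22*, *Mettl7a1*, *Neat1* and *Clic3*. *Prdx6*, a peroxiredoxin with phospholipase activity, had 5858 against 1667 CPM and stayed within 4-fold. *Sparc*, a calcium-binding matrix protein, had 366, 3612 and 8793 CPM in AT1 cells against 0, 17.6 and 1388 CPM, a log2 ratio of 4.12 (4.09 to 4.14). No remaining cell reached the AT1 median of *Sparc*. *Gm28437*, *Gm29216* and *Gm28661* were also among the 20 nuclear genes with most reads, at 7065, 4992 and 3309.8 CPM against 8206, 9830 and 4713 CPM. They are annotated copies of mitochondrial sequence, so that reads of the mitochondrial genes could have been counted on them and their values are uncertain. *Yam1* had 15975 against 23490.1 CPM.

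Of 4638 genes compared between the summed AT1 cells and the summed remaining cells, 889 (19.2%) were at least 4-fold higher and 621 (13.4%) at least 4-fold lower, with a median log2 ratio of 0.44 over the genes compared. Since the remaining cells are a mixture, the AT1 cells were also set against each class. Against AT2-like cells 1404 of 4538 genes (30.9%) were higher and 562 (12.4%) lower. Against club-like cells 1688 of 4438 (38%) were higher and 487 (11%) lower, and against ciliated-like cells 1275 of 5359 (23.8%) were higher and 1316 (24.6%) lower. Of 3699 genes compared in all of these, 516 (13.9%) were higher in AT1 cells than in the remaining cells and in each of the 3 classes. The 20 cells outside the 3 classes, some with basal markers, were not compared as a class of their own.

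**Figure D2:**
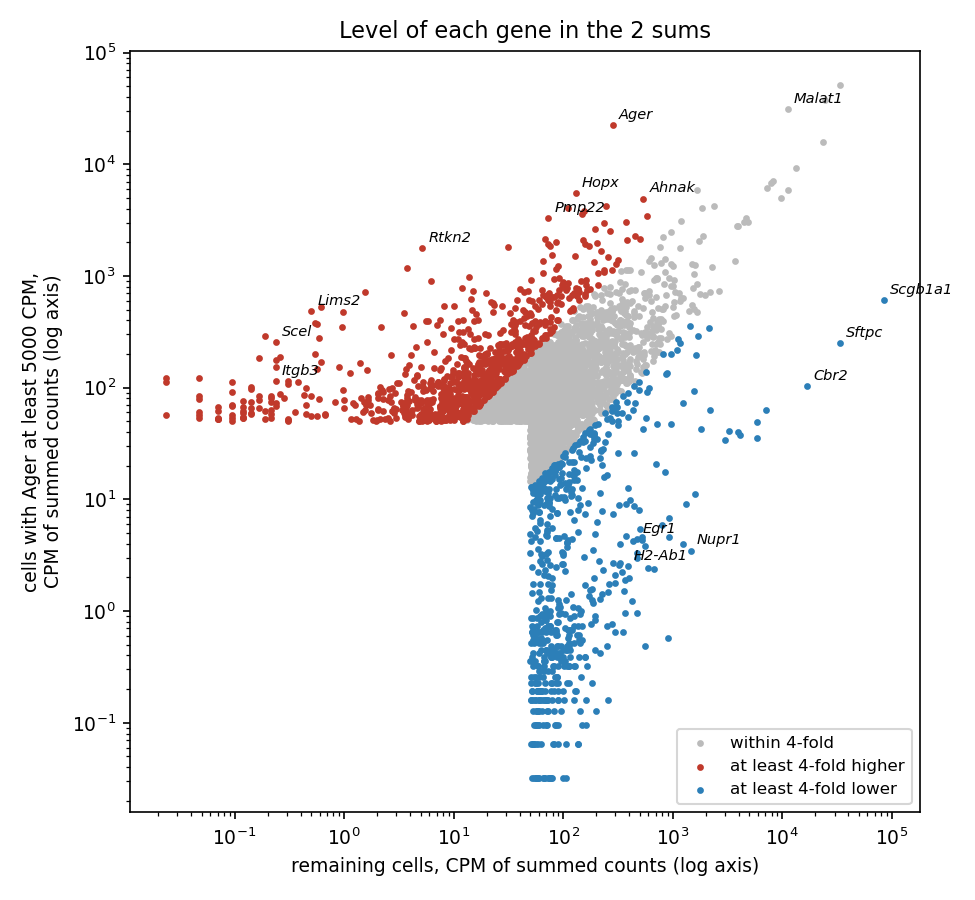
Each point is 1 gene, with its CPM in the summed remaining cells and in the summed AT1 cells on log axes (genes with at least 50 CPM in 1 of the sums and a read in both). Rtkn2, Lims2 and Scel stand far to the left of genes of their AT1 level, and Sftpc, Scgb1a1 and Cbr2 far to the right.

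Most of the 889 higher genes were not found in every AT1 cell. Only 263 had a read in at least 50% of the AT1 cells, and in 132 a single AT1 cell held more than 50% of the AT1 reads. With cells of a mitochondrial share under 0.15, 790 of the 889 stayed at least 4-fold higher, and 550 did so in each part of the chip (its first 10 columns and the rest). Of the 621 lower genes 570 and 473 did so. Among the higher genes with a position, 96.5% were protein coding (92.6% of all compared), and their summed exons had a median length of 5498 bases against 4367 for all compared and 3129 for the lower genes.

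A read in every AT1 cell was found for 21 of the higher genes, which were picked after their values were seen. These were *Ager*, *Hopx*, *Ahnak*, *Sparc*, *Clic5*, *Vegfa*, *Emp2*, *Timp3*, *Icam1*, *Cldn18*, *Fam189a2*, *Alcam*, *Cyp2b10*, *Scd2*, *Gprc5a*, *Lmo7*, *Col4a4*, *Rtkn2*, *Macf1*, *Mal2* and *Spock2*. For *Ager*, *Hopx*, *Sparc*, *Clic5*, *Vegfa*, *Emp2*, *Rtkn2* and *Spock2* no remaining cell passed the AT1 median. *Icam1*, an adhesion molecule bound by leukocyte integrins, had 2632 against 195 CPM, log2 ratio 3.76, and 1 of 77 remaining cells passed the AT1 median. *Alcam*, an immunoglobulin family adhesion molecule, had 2130.4 against 508 CPM, log2 ratio 2.07. *Cyp2b10*, a cytochrome P450, had 2093 against 152 CPM, log2 ratio 3.79, and *Fam189a2*, a membrane protein, 2136 against 67.6 CPM, log2 ratio 4.98. *Spock2*, a proteoglycan of the testican family, had 6.14, 560.1 and 4825 CPM in AT1 cells and a read in only 28 of 77 remaining cells.

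The 30 leading genes were those with the largest ratio among 1120 genes with at least 50 CPM and a read in at least 50% of the AT1 cells. Their log2 ratios ran from 5.48 to 10.08 and their AT1 levels from 144 to 22241 CPM. All 30 were at least 4-fold higher against the AT2-like, the club-like and the ciliated-like cells, with a mitochondrial share under 0.15, and in both parts of the chip. The ratio in these same cells had chosen them, with limits on level and reads set only on AT1 cells. This describes the list and is no independent check. The 30 genes had a read in 33 to 64 AT1 cells, and the cell with most reads held 6.12% to 28.1% of them. Beside the markers *Ager*, *Rtkn2*, *Akap5* and *Col4a3* they included *Scel*, *Lims2*, *Rasgrf2*, *Ntn4*, *Igfbp2*, *Tmem140*, *Itgb6*, *Ptpre*, *Adamtsl4*, *Flrt3*, *Dusp7*, *Arhgef26*, *Cdkn2b*, *Sema3a*, *Cped1*, *Csf1r*, *Abca5*, *Spock2*, *Nt5e*, *Pxdc1*, *Lama3*, *Phactr1*, *Scnn1g*, *Pmp22* and *Bdnf*.

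The largest ratio was that of *Scel*, a protein of cornified envelopes, at 257 (251 to 263) against 0.238 (0.114 to 0.437) CPM and a log2 ratio of 10.08 (9.20 to 11.14). It was not a gene of every AT1 cell, since 34 of 64 had a read and the values were 0, 2.38 and 3646 CPM, against at most 9.10 CPM in any remaining cell. *Lims2*, an adaptor that joins integrin-linked kinase to actin, had 481 against 0.499 CPM, log2 ratio 9.91 and a read in 41 AT1 cells. *Rasgrf2*, an exchange factor for Ras and Rac, had 523 against 0.618 CPM, log2 ratio 9.73 (38 AT1 cells). Over the AT1 cells *Lims2* ran from 0 through a median of 6.13 to 4176 CPM and *Rasgrf2* from 0 through 3.74 to 4141 CPM, so that cells with no read stood beside cells with a high level.

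*Flrt3*, a membrane protein that binds latrophilins and UNC5 receptors, had 0, 802 and 8132 CPM in AT1 cells against 0, 0 and 144 CPM, with a read in 56 of 64 against 24 of 77 cells. *Cped1* had 972 against 13.7 CPM, log2 ratio 6.15 and a read in 55 AT1 cells. *Pxdc1* was found in 58 AT1 cells, with 543 against 10.0 CPM, log2 ratio 5.76. These were found in more AT1 cells than *Scel* or *Rasgrf2*.

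A leading gene that is better known from blood cells is *Csf1r*. *Csf1r*, the receptor for macrophage colony-stimulating factor, had 0, 49.0 and 2537 CPM in AT1 cells, a read in 45 of 64, and 5.63 CPM in the summed remaining cells. *Ptprc* (CD45), which the sort gated out, had 1 read in all AT1 cells together. Of the 6 immune markers fixed for this check only *Ptprc* is among the 17136 genes listed.

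Further leading genes act on signals or nucleotides at the cell surface. *Nt5e*, the 5′-nucleotidase that makes adenosine, had 533 against 8.25 CPM, log2 ratio 6.02. *Ptpre*, a receptor-type tyrosine phosphatase, had 0, 86.0 and 4999 CPM in AT1 cells and 46.1 CPM at most outside. *Dusp7*, a phosphatase of MAP kinases, had 351 against 2.16 CPM, log2 ratio 7.34. *Cdkn2b*, an inhibitor of the cyclin D kinases CDK4 and CDK6, had 144 against 1.62 CPM, log2 ratio 6.48 with a read in 34 AT1 cells, and 1 of them held 24.2% of the reads. *Tmem140* had the most uneven reads of the leading genes, with 28.1% in 1 cell.

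**Figure D3:**
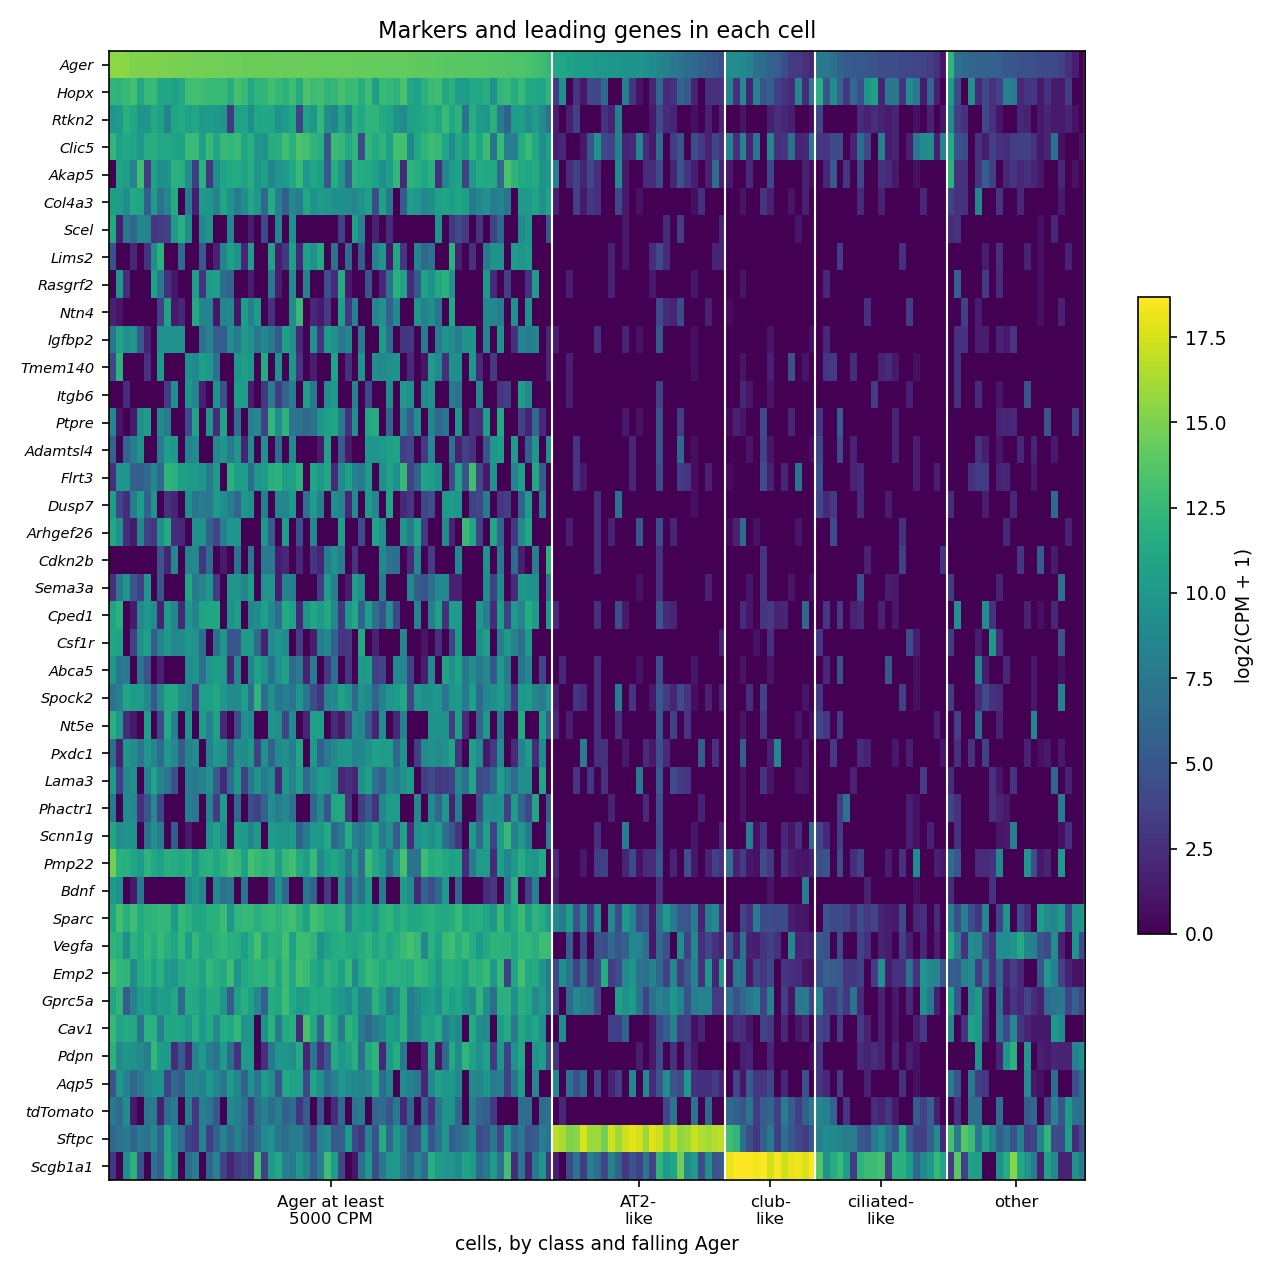
Level of the 6 markers, further leading genes and other genes named in the text in each cell, as log2(CPM + 1), with the cells grouped by class and ordered by falling Ager. Ager, Hopx, Clic5, Sparc, Vegfa and Emp2 are high in nearly all of the 64 cells at the left, while Scel, Rasgrf2 and Bdnf are present in some and dark in others.

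Gene lists for functions of these cells are described by how many of the genes compared were higher or lower, beside 19.2% and 13.4% over all genes and their median log2 ratio of 0.44. The lists were chosen with earlier results of these data known, and a gene could be compared through its AT1 level alone. The list with the largest share of higher genes was that of the basement membrane. Of 14 compared, 12 (85.7%) were higher and none lower, with a median log2 ratio of 2.97. All 6 type IV collagen genes were among them, and they form 3 pairs that start back to back from a shared promoter. *Col4a3* and *Col4a4* had 905 and 1862 CPM in AT1 cells, with 71 bases between them in the annotation. *Col4a1* and *Col4a2* had 891 and 682 CPM (log2 ratios 3.15 and 3.27), and *Col4a5* and *Col4a6* had 162 and 102 CPM (log2 ratios 2.60 and 2.22).

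The collagen pairs differed in how many AT1 cells they marked. *Col4a4* had a read in 64 of 64 AT1 cells, with 2.39, 1518 and 10021 CPM against a median of 2.37 CPM outside. *Col4a6* had a read in 15, and 1 cell held 67.8% of its reads, without which the log2 ratio was 0.63. Against AT2-like cells *Col4a3* had a log2 ratio of 9.40 and *Col4a1* of 2.41. The laminin chains *Lama3* and *Lamb3* had 403 and 401 CPM, with log2 ratios of 5.74 and 2.17. With cells under a mitochondrial share of 0.15 the log2 ratio of *Lamb3* was 1.75, within 4-fold. The heparan sulfate proteoglycans *Agrn* and *Hspg2* (perlecan) had 659.9 against 96.0 CPM and 314 against 11.1 CPM, and *Npnt*, an integrin ligand, 649 against 69.9 CPM, log2 ratio 3.22.

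Integrin chains differed both ways. Of 9 compared, 4 were higher and 2 lower, with a median log2 ratio of 1.67. *Itgb1*, the shared beta chain of many matrix receptors, had 0, 356 and 2496 CPM in AT1 cells, and 749.8 against 92.2 CPM, log2 ratio 3.02 in the sums. *Itgb6*, whose product with the alpha V chain binds latent TGF-beta, had 279 against 0.594 CPM, log2 ratio 8.87 and a read in 34 AT1 cells. *Itgb3* had 114 against 0.238 CPM, log2 ratio 8.90 in 24 AT1 cells and *Itgb5* 235 against 30.9 CPM, log2 ratio 2.93 in 25. In the first 10 chip columns *Itgb5* was within 4-fold, at a log2 ratio of 1.56. *Itgb4*, the hemidesmosome chain, was lower at 0.643 against 51.5 CPM, log2 ratio -6.32. *Itga8* was lower as well, but its reads outside came from 2 cells.

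Caveolae are flask-shaped pits of the plasma membrane that fill much of the surface of AT1 cells. Of 11 genes of caveolae and endocytosis compared, 5 were higher and none lower (median log2 ratio 1.80). *Cav1*, the main caveolin, had 0, 1492 and 9654 CPM in AT1 cells against 0, 1.41 and 1770.2 CPM, and 1 of 77 remaining cells passed the AT1 median. *Cav2*, which lies beside it on chromosome 6, had 539 against 55.1 CPM, log2 ratio 3.29. The coat protein genes *Ptrf* and *Sdpr* had 674 against 194 CPM and 1132 against 281 CPM, so that *Ptrf* (log2 ratio 1.80) stayed within 4-fold. *Sdpr* was within 4-fold too (1.76) in cells under a mitochondrial share of 0.15. *Ehd2*, an ATPase at the neck of caveolae, had 275 against 10.0 CPM, log2 ratio 4.78.

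Proteins of the thin apical membrane made the next group. Of 11 membrane linkers compared, 4 were higher and 3 lower. *Pdpn* (podoplanin, also known as T1alpha), a mucin-type membrane protein, had 0, 638 and 5595 CPM in AT1 cells against 0, 0 and 3848 CPM. Its log2 ratio was 3.39 against all remaining cells and 9.47 against AT2-like cells. *Msn* (moesin), which ties membrane proteins to actin, had 1534 against 78.8 CPM, log2 ratio 4.28. The CLIC family split, since *Clic5* and *Clic3* (log2 ratio 3.64) were higher while *Clic1* (-6.14) and *Clic6* (-8.74) were lower.

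Of 12 genes of the PMP22/EMP family and the tetraspanins, 5 were higher and 3 lower. *Emp2* had 10.8, 3149 and 9612 CPM in AT1 cells and no remaining cell above the AT1 median. *Pmp22* had 0, 2057 and 27237 CPM and a log2 ratio of 5.49, with 11.5% of its AT1 reads in 1 cell. The related *Emp1* had 0.225 against 78.8 CPM, so that the same family held members of both directions. *Tspan8* (log2 ratio 4.37), *Tspan15* (3.52) and *Cd151* (2.83) were higher and *Tspan1* (-2.35) lower.

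Among 24 cytoskeletal genes 8 were higher and 2 lower, with a median log2 ratio of 1.24. *Ahnak*, a very large scaffold protein under the membrane, had 49.8, 4009 and 19345 CPM against a median of 198 CPM outside. The LIM domain proteins *Lmo7* and *Limch1*, which act at adherens junctions and on myosin, had 1868 against 172 CPM, log2 ratio 3.44, and 1157 against 85.2 CPM, log2 ratio 3.76. *Vcl* (vinculin) had 304 against 36.2 CPM, log2 ratio 3.07. The most abundant genes of the list, *Actb* and *Tmsb4x*, were within 4-fold (4219 against 2384 CPM and 4077 against 1849 CPM). Of 14 annexins and calcium-binding proteins 3 were higher and 1 lower (median log2 ratio 0.71), the higher ones being *Anxa3*, *Anxa5* and *Anxa7*, which bind membrane phospholipids, with log2 ratios of 2.20, 2.43 and 2.53. *Anxa3* was within 4-fold (1.88) in cells under a mitochondrial share of 0.15, and *Anxa7* (1.55) in the first 10 chip columns. Of the keratins compared, *Krt7* was higher (1467 against 255 CPM, log2 ratio 2.53), and *Krt8*, *Krt18* and *Krt19* were within 4-fold with log2 ratios of -0.52, -0.93 and 0.57.

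Of 21 junction genes compared, 8 were higher and 3 lower, with a median log2 ratio of 1.26. *Cldn18*, the claudin of alveolar tight junctions, had 7.47, 2079 and 8049 CPM in AT1 cells. It was higher than in all remaining cells by 3.26 on the log2 scale but by only 1.69 against AT2-like cells, which is within 4-fold. *Cldn3* and *Cldn10* were lower, with log2 ratios of -7.20 and -7.54. The scaffold *Tjp1*, the tight junction proteins *Ocln* and *Marveld2* and the gap junction protein *Gja1* were higher, with log2 ratios of 3.28, 3.15, 2.51 and 3.35. *Cdh1*, the gene of the E-cadherin used in the sort, had 715 against 306 CPM.

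Water and ion transport genes split by kind. Of 14 compared, 5 were higher and 7 lower, with a median log2 ratio of -1.56. *Aqp5*, the locus that drives Cre in these mice, had 0, 400.1 and 2749 CPM in AT1 cells against 0, 2.64 and 1188 CPM, a log2 ratio of 4.01. It had a read in 59 of 64 AT1 cells and 45 of 77 others. All of these cells had been sorted on *tdTomato*, which marks cells in which *Aqp5* had driven Cre at some time. The 3 subunits of the epithelial sodium channel, which draws sodium and with it water out of the airspace, were all higher. *Scnn1a* had 654 against 83.0 CPM, log2 ratio 2.98 and *Scnn1b* 491 against 14.7 CPM, log2 ratio 5.06. *Scnn1g* had 0, 477 and 6349.6 CPM against 0, 0 and 272 CPM, a log2 ratio of 5.60. *Scnn1b* and *Scnn1g* lie beside each other on chromosome 7. *Ano1*, a calcium-activated chloride channel, had 700.2 against 125 CPM, log2 ratio 2.48. The sodium pump beta subunits *Atp1b1* and *Atp1b3* were lower (-2.37 and -2.63).

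**Figure D4:**
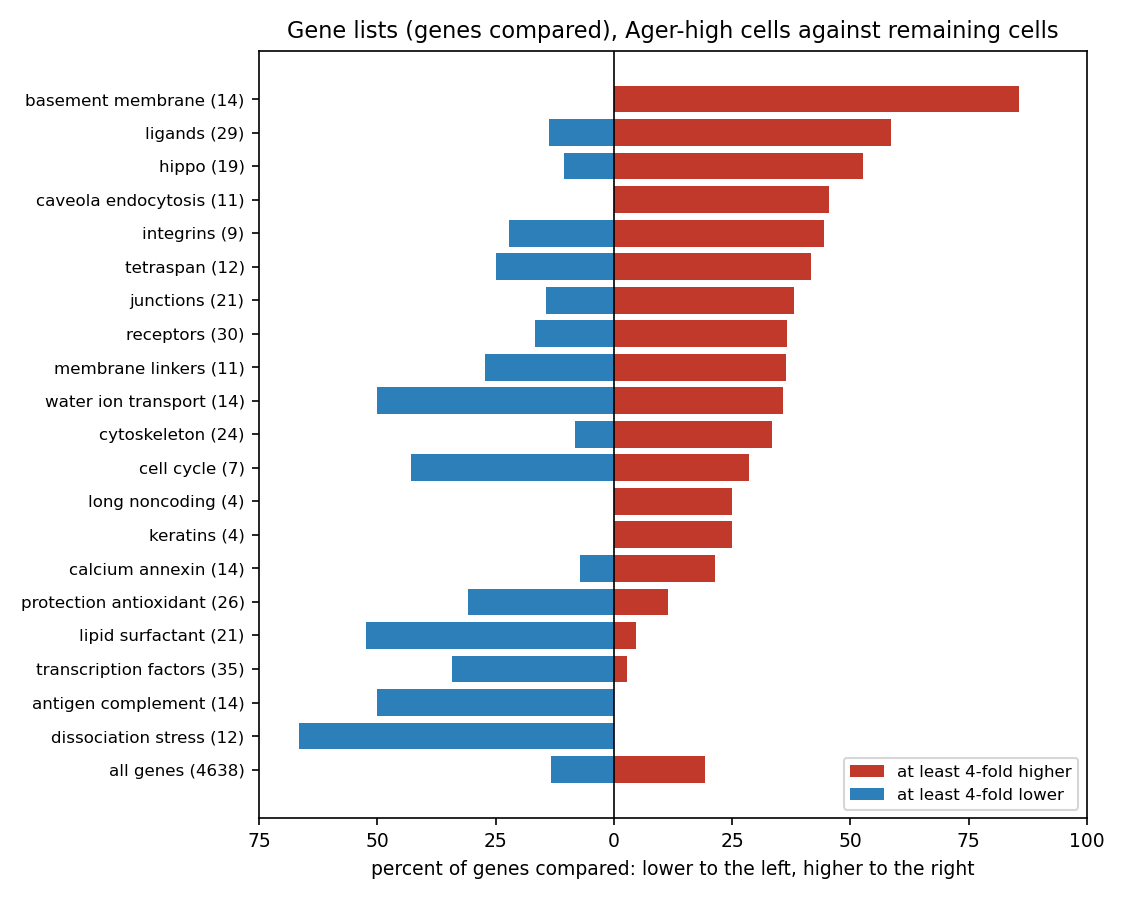
For each gene list, the percent of the genes compared (number in parentheses) that were at least 4-fold higher (right) or lower (left) in AT1 cells than in the remaining cells, with all genes at the bottom. The basement membrane list reaches 85.7% higher, and the dissociation stress list has 66.7% lower and none higher.

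Genes of secreted signals were higher more often than all genes compared. Of 55 ligands and binding proteins in the count data, 29 were compared. Of these, 17 were higher and 4 lower (58.6% and 13.8%), with a median log2 ratio of 2.93. Several of the 17 passed the minimum of 50 CPM only through AT1 cells, so that the share is no independent support. *Vegfa*, the endothelial growth factor, had 431, 3683 and 9693 CPM in AT1 cells against 0, 11.3 and 2800.2 CPM. Its groups overlapped, but no remaining cell passed the AT1 median, and the log2 ratio was 4.61 against all remaining cells and 4.89 against AT2-like cells. The class 3 semaphorins, guidance factors for axons and vessels, were represented by *Sema3a* (358 against 4.28 CPM), *Sema3e* (599 against 51.8 CPM), *Sema3b* (416 against 43.5 CPM) and *Sema3f* (135 against 11.3 CPM). In the first 10 chip columns the log2 ratio of *Sema3f* was 0.04. *Sema3c* went the other way (12.4 against 119 CPM).

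Growth factors among the higher ligands were *Pdgfa* (836 against 97.6 CPM, log2 ratio 3.10), *Fgf1* (718 against 44.0 CPM, log2 ratio 4.03), *Pdgfb*, *Fgf18*, *Wnt3a*, *Wnt7a* and *Tgfb2*. The last 4 were nearly silent outside AT1 cells, at 0.119, 0.0713, 0.547 and 0.570 CPM. Within AT1 cells they were found in a minority, 24, 19, 18 and 27 of 64 cells. *Ntn4*, a laminin-related netrin, had 377 against 0.547 CPM, log2 ratio 9.43 in 39 AT1 cells. *Bdnf*, a neurotrophin, had 254 against 5.68 CPM, log2 ratio 5.48 in 37.

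Of the binding proteins for insulin-like growth factors, *Igfbp2*, *Igfbp6* and *Igfbp7* were higher and *Igfbp5* lower. *Igfbp2* had 0, 199.6 and 1806 CPM in AT1 cells, a read in 50 of 64 and at most 34.5 CPM outside. *Igfbp7* had 0, 1322 and 5901 CPM in AT1 cells, and 1684 against 221 CPM, log2 ratio 2.93 in the sums. *Igfbp6* had 752 against 106 CPM, log2 ratio 2.83 and *Igfbp5* 4.28 against 438 CPM, log2 ratio -6.68.

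Of 30 receptors compared, 11 were higher and 5 lower, with a median log2 ratio of 1.02. *Gprc5a*, an orphan G protein-coupled receptor, had 40.2, 1496 and 7489 CPM in AT1 cells against 0, 23.5 and 1841 CPM. It had a read in every AT1 cell, but also in 65 of 77 remaining cells, of which 2 passed the AT1 median. The levels were 267 CPM in AT2-like, 129.7 in club-like and 78.2 in ciliated-like cells. *Nrp2*, a coreceptor for semaphorins and VEGF, had 176 against 0.238 CPM, log2 ratio 9.53 in 28 AT1 cells. *Egfr* (119 against 15.5 CPM, log2 ratio 2.94) and *Fzd2* (153 against 5.04 CPM, log2 ratio 4.93) were higher too. In chip columns past the first 10 *Egfr* was within 4-fold (1.88). Lower were *Met*, the receptor of hepatocyte growth factor (0.225 against 108 CPM, log2 ratio -8.90), and *Notch1* (0.161 against 55.1 CPM, log2 ratio -8.42), while *Notch2* was higher (67.8 against 8.48 CPM, but a log2 ratio of 1.78 without the cell with most reads).

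The Hippo pathway restrains the coactivators YAP and TAZ, which work through TEAD factors and answer to cell shape. Of 19 genes compared, 10 were higher and 2 lower, with a median log2 ratio of 2.06. *Tead1* had 0, 569.6 and 4252 CPM in AT1 cells against 0, 0.674 and 576 CPM, and a log2 ratio of 4.16. *Wwtr1* (TAZ) had 246 against 35.8 CPM, log2 ratio 2.78, *Lats2*, a kinase that inhibits it, 162 against 16.7 CPM, log2 ratio 3.28, and *Amotl2*, which holds it at junctions, 396 against 55.6 CPM, log2 ratio 2.84. In the first 10 chip columns *Wwtr1* was within 4-fold (1.52). *Ankrd1*, a known target, had 91.9 against 0.0951 CPM, log2 ratio 9.92 in 21 AT1 cells. Of the further targets in the list *Axl* and *Crim1* were lower (-7.13 and -6.62).

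Transcription factors on the list made for them were seldom higher. Of 35 compared on this list, 1 (*Hopx*) was higher and 12 lower, with a median log2 ratio of -0.67. The list does not hold every factor, and *Tead1* and *Tead4* of the Hippo list were higher. The lower ones included *Etv5* (-7.57), *Cebpd* (-6.61), *Ehf* (-6.43), *Elf3* (-2.88), *Klf4* (-8.28), *Id2* (-2.87), *Sox2* (-9.13) and *Trp63* (-8.65). *Elf3* was within 4-fold in chip columns past the first 10 (-1.54) and *Id2* in the first 10 (-1.19). The factors of the list with most reads in AT1 cells after *Hopx* were *Hes1*, *Klf6* and *Klf9*, at 778 against 1541 CPM, 539 against 479.8 CPM and 487 against 124 CPM, all within 4-fold (*Klf9* at a log2 ratio of 1.97, which another scaling, TMM, moves past 4-fold). *Nkx2-1*, the lung lineage factor (picked after its values were seen), had a read in 56 of 64 AT1 cells and 49 of 77 others and 219 against 124 CPM.

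Genes of AT2 cells and of lipid synthesis were often lower. Of 21 compared, 1 was higher and 11 were lower (4.76% and 52.4%), with a median log2 ratio of -2.05. *Sftpc* had 6.75, 124 and 2847 CPM in AT1 cells and 250.1 in their sum. Its level was 131422 CPM in AT2-like cells, which it had chosen, and 195 in ciliated-like cells. *Sftpa1*, *Sftpb* and *Sftpd*, surfactant proteins as well, had log2 ratios of -6.81, -6.34 and -5.11. *Fasn* (fatty acid synthase) and the desaturase *Scd1* were lower (-2.05 and -5.41), *Fasn* within 4-fold (-1.35) in chip columns past the first 10. The related desaturase *Scd2* was the exception, with 6.02, 1706 and 7805 CPM in AT1 cells, 1955 against 204 CPM in the sums and a log2 ratio of 3.26. Against AT2-like cells *Scd2* was within 4-fold (1.66). *Abca3*, the lipid transporter of lamellar bodies, had 237 against 219.98 CPM and was found in 40 AT1 cells, against 536 CPM in AT2-like cells.

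Genes of antigen presentation and complement were lower or within 4-fold. Of 14 genes compared, none was higher and 7 lower, with a median log2 ratio of -2.73. The MHC class II genes *H2-Aa*, *H2-Ab1* and *H2-Eb1* and their chaperone *Cd74* had 2.09, 2.54, 0.514 and 16.4 CPM in AT1 cells against 1163, 1431, 473 and 936 CPM in AT2-like cells. The class I genes stayed within 4-fold, with log2 ratios of 0.62 for *B2m*, -0.40 for *H2-K1* and 1.13 for *H2-D1*. *C3* and *Serping1* of the complement system were lower (-7.26 and -9.08).

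Protective genes went both ways. Of 26 compared, 3 were higher and 8 lower, with a median log2 ratio of -1.16. The protease inhibitors *Timp2* and *Timp3* and the small heat shock protein *Cryab* were higher (3.03, 2.56 and 3.57). *Cryab* had 0, 1232 and 3947 CPM in AT1 cells and a median of 0 CPM outside. The glutathione transferases *Gstm1*, *Gsta4*, *Gsto1* and *Mgst1* and the metallothioneins *Mt1* and *Mt2* were lower, with log2 ratios of -4.05, -7.60, -2.86, -5.09, -7.67 and -5.74. *Gpx3* was at 0.482 against 562 CPM, but outside AT1 cells it had a read in only 8 cells. *Gsto1* was nearly absent from AT2-like cells (0.478 CPM, against 54.1 in AT1 cells), so that its direction depended on the class.

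Genes that are quickly induced when tissue is dissociated were mostly lower in AT1 cells than in the rest. Of 12 compared, none was higher and 8 lower (66.7% lower), with a median log2 ratio of -2.16. The summed level of the list was 17.0, 1094 and 24234 CPM (lowest, median and highest) in AT1 cells and 9.79, 3726 and 24704 CPM in the others, so that the ranges overlapped almost wholly and the medians differed. *Egr1*, an immediate early factor, had 0, 0 and 81.6 CPM against 0, 27.2 and 4129 CPM. *Fos*, *Atf3* and *Ier2* had log2 ratios of -2.01, -3.93 and -3.64. *Fos* was within 4-fold (-0.96) in chip columns past the first 10. *Dusp1* and *Hspa1a* were within 4-fold (-0.12 and -0.87). What part handling had in the differences between AT1 and other cells was not tested.

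Of 7 cell cycle genes compared, 2 were higher and 3 lower. The inhibitors *Cdkn1b* (86.1 against 9.13 CPM, log2 ratio 3.24) and *Cdkn2b* were higher, and *Cdkn1a* (4.15 against 109 CPM, log2 ratio -4.72) and *Cdkn1c* (-5.20) were lower. In the first 10 chip columns *Cdkn1c* was within 4-fold (-1.72). The D cyclins differed, with *Ccnd1* at 0.900 against 196 CPM, *Ccnd2* at 849 against 366 CPM and *Ccnd3* at 307 against 102 CPM. *Mki67*, a gene of dividing cells, had no read in AT1 cells, which allows up to 0.0964 CPM in their sum. Genes of the transitional state between AT2 and AT1 cells were lower or within 4-fold except for *Itgb6*, which was higher. *Sfn* and *Areg* were lower (-8.69 and -7.39), and *Sprr1a* is not listed among the 17136 genes.

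The 20 lowest genes, with at least 50 CPM and a read in at least 25% of the remaining cells, had at most 3.47 CPM in AT1 cells. *Nupr1*, a stress-induced chromatin protein, had the most reads of them, at 3.47 against 1463 CPM (log2 ratio -8.72, -9.01 to -8.45), with 0, 1.26 and 74.7 CPM per AT1 cell against 0, 4.82 and 20142 CPM. It was lower against each class (-7.53, -10.29 and -6.46 for AT2-like, club-like and ciliated-like cells). *Ifitm1* and *Ifitm2*, neighbouring genes of interferon-induced membrane proteins, had 0.643 against 298 CPM and 0.482 against 249.6 CPM. *Ly6k* and *C6* were lower against each class too. *Cyp2a5*, *Vwa3a*, *Calml4*, *Odf3b*, *Cfap69* and *Lca5* were low in AT1 and in AT2-like cells and high in ciliated-like cells. *Dcn* had 0.964 against 471 CPM but was within 4-fold of the AT2-like, club-like and ciliated-like cells, so that its reads lay in the cells outside these classes.

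RNA of other cell types in the AT1 cells was small but not absent. Of the 6 AT2 markers 5 were lower, of the 6 club markers all, of 6 ciliated markers compared 5 and of the 6 basal markers all. In chip columns past the first 10 the basal marker *Krt14* was not lower, with under 1 CPM in AT1 and in remaining cells and a log2 ratio of 0.89. The club list summed to 1.19, 273 and 12191 CPM (lowest, median and highest) in AT1 cells against 180230, 370823 and 474743 CPM in club-like cells, and the AT2 list to 15.1, 368 and 3415 against 27322, 113860 and 251032 CPM in AT2-like cells. The levels in club-like and AT2-like cells were high in part by rule, since *Scgb1a1* and *Sftpc*, which chose these cells, are in the lists. At least 50% of the club markers were above 100 CPM in 9 AT1 cells and at least 50% of the AT2 markers in 1. Without the 9 AT1 cells in which this held for any other type, 894 genes were higher and 642 lower, and 792 of the 889 and 591 of the 621 were among them.

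*Tppp3*, a tubulin-binding protein in the ciliated list, was read in most AT1 cells. It had 0, 1224 and 5831 CPM in AT1 cells and a read in 57 of 64, against 252 CPM in AT2-like, 166 in club-like and 7705 in ciliated-like cells. It made up nearly all of the ciliated list's sum in AT1 cells (0, 1232 and 5844 CPM per cell), since the next, *Dynlrb2*, had 8.87 CPM. Basal markers summed to at most 55.3 CPM in any AT1 cell, fibroblast markers (4 of 6 listed) to at most 14.1, mesothelial markers to at most 28.5 and endothelial markers (5 of 6 listed) to at most 10.4 CPM. *Tie1*, *Tek*, *Myh11*, *Wt1* and *Lrrn4* had no read in AT1 cells. No gene of the neuroendocrine list is among the 17136 listed.

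The reporter was read in AT1 cells and outside them. A *tdTomato* read was found in 51 of 64 AT1 cells (79.7%, Clopper-Pearson 95% interval 67.8 to 88.7) and in 42 of 77 remaining cells (54.5%, 42.8 to 65.9). These intervals treat the cells of 1 mouse as independent, so that they are no test of a difference. The levels of *tdTomato* were 0, 75.8 and 775 CPM in AT1 cells and 0, 3.26 and 1119.6 CPM outside, with a log2 ratio of 0.90. Only 1 AT1 cell had a read of neither *tdTomato* nor *Aqp5*. *Pecam1* (CD31), which the sort gated out, had 0.579 CPM in the AT1 sum.

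Within the AT1 cells, level and spread went together only in part. After every cell was thinned to 90000 reads, 35 of the 1801 genes with at least 100 CPM in AT1 cells had a read in all 64, 1201 had one in under 50% of the cells and 342 in under 25%. At a level near 500 CPM the count could be low, as for *Rasgrf2* (523 CPM, 27 cells) and *Tmem140* (477 CPM, 27 cells), or high, as for *Pxdc1* (543 CPM, 53 cells) and *Cav2* (539 CPM, 48 cells). At the bottom stood *Fut11*, a fucosyltransferase, whose 101 CPM came from 2 cells with 97.0% of the reads in 1 of them. After thinning, *Grk6* (4 cells), *Ggps1* (4), *Cda* (3) and *Asxl1* (3) also had a read in few cells. *Cda*, a cytidine deaminase, had 1 read in all remaining cells, so that its log2 ratio of 12.20 has an interval of 9.72 to 17.50. A cell without a read of a gene may still hold its RNA, and how much of the RNA was captured was not tested.

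**Figure D5:**
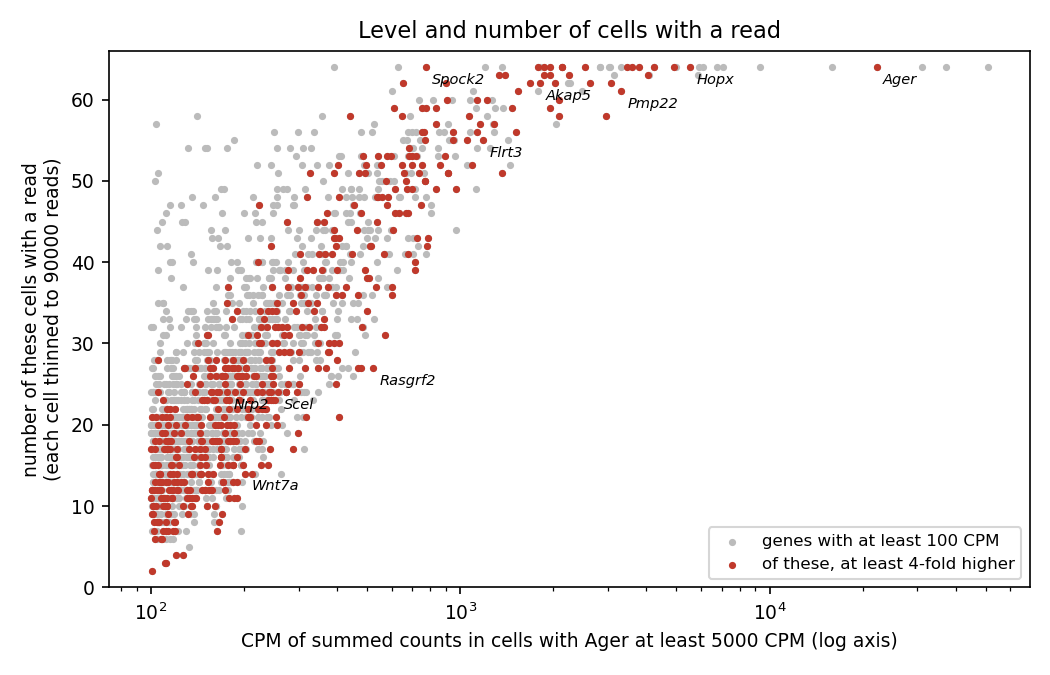
Each point is 1 gene with at least 100 CPM in the summed AT1 cells (log axis), against the number of the 64 AT1 cells with a read after thinning to 90000 reads. Ager and Hopx lie at 64 cells, and Wnt7a, Scel and Nrp2 at under 30.

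Markers that the study named for AT1 cells showed this spread as well. Above 100 CPM were *Ager* in 64 cells, *Hopx* in 64, *Gprc5a* in 59, *Rtkn2* in 61, *Cav1* in 57, *Pdpn* in 43, *Aqp5* in 48, *Scnn1g* in 44, *Cav2* in 39, *Igfbp2* in 39 and *Gramd2* in 35 of 64 AT1 cells. Of the 77 remaining cells the same held for *Ager* in 30, *Hopx* in 19, *Gprc5a* in 32, *Rtkn2* in 2, *Cav1* in 9, *Pdpn* in 6, *Aqp5* in 10, *Scnn1g* in 3, *Cav2* in 11, *Igfbp2* in 0 and *Gramd2* in 6. *Rtkn2* and *Igfbp2* thus had the fewest remaining cells, and *Ager* and *Gprc5a* the most, *Ager* at levels far under the limit of 5000 CPM. *Gramd2* had 0, 120.3 and 3607 CPM in AT1 cells, and a log2 ratio of 4.66 in the sums.

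Of 850 higher genes with a position, 327 (38.5%) stood next to another higher gene among the compared genes in chromosome order. Of 599 lower genes 175 (29.2%) stood next to another lower gene. Of all genes compared 19.2% were higher. Most genes have a compared gene on each side, so that 19.2% is not the share to set against 38.5%. How many pairs would be met without any grouping was not tested. Neighbours among the compared genes can lie far apart, such as *Pof1b* and *Tspan6* at 2.12e+07 bases. Beside the collagen and sodium channel pairs, the pairs of higher genes included *Hopx* and *Igfbp7* on chromosome 5, 234118 bases apart. *Sema3a* and *Sema3e* on the same chromosome were 422710 bases apart. *Ocln* and *Marveld2* (43238 bases) and *Cav1* and *Cav2* (17219 bases) were further pairs. The neighbours of *Ager* differed. *Gm20463*, annotated as antisense RNA, which starts 214 bases past the end of *Ager* on the same strand, had 101 against 0.143 CPM, log2 ratio 9.46 with a read in 26 AT1 cells. It overlaps *Rnf5* on the opposite strand, which had 0.161 against 42.0 CPM. Whether the counting used the strand is not given, and reads past the annotated end of *Ager* could not be told from *Gm20463*. *Pbx2*, on the other side of *Ager*, had 35.2 against 11.8 CPM, under the 50 CPM needed for a comparison.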

How the data were processed

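RNA of 141 single cells of 1 mouse was measured. The authors trimmed the paired reads (Trim Galore, FastQC), aligned them to GRCm38 (HISAT2) and counted them per gene (featureCounts), and deposited whole-number counts for 17136 genes (versions and use of strand are not given in the sources used here). No molecular identifiers are described, and sites were checked for cells by microscopy. No doublet caller was run.

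Counts were summed over the AT1 cells, the remaining cells and each other class and scaled to CPM (Python 3.11.15, numpy 2.4.6, pandas 2.3.3, scipy 1.17.1, matplotlib 3.10.9). Intervals are exact at 95%. The arithmetic was tested on simulated data. A single edgeR 4.0.16 TMM factor (R 4.3.3) served only as an alternative scaling. Every cell was thinned to 90000 reads for counts of cells with a read. Positions of 16084 of 17136 genes are from GENCODE vM21.

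The AT1 cells and the gene lists were chosen with earlier results of these data known, and the limits for the AT2-like, club-like and ciliated-like classes were set after the data were seen. Genes were named by rule: the 6 markers, the 20 nuclear genes with most reads in AT1 cells, the 30 highest and 20 lowest by ratio, the 4 with most reads of each list and all past 4-fold, the 15 most unevenly found, the neighbours of Ager and the genes the study named. Not all genes that the rule selects are printed, and some are not reported here. Alternatives were other limits on Ager and on CPM, a fold of 8, cells with under 0.15 of mitochondrial reads, another total, equal weights, thinning, parts of the chip, and leaving out a gene's top cell or the AT1 cells with markers of another type. Total reads per AT1 cell ran from 91402 to 1022879, which limits low genes.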

Additional observations from a re-analysis of the deposited data

How the results depend on the processing

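The number of AT1 cells was 61 to 67 over the limits on Ager of 10000 and 2000 CPM and 65 with mitochondrial reads left out of the total. The counts of 889 higher and 621 lower genes ran from 844 to 1269 and from 585 to 910 under the other scalings, weights, limits on Ager, parts of the chip, the limit on mitochondrial reads and without the 9 AT1 cells with markers of another type. They moved further with the minimum level, by the number of genes compared, to 1474 and 1564 genes at 20 CPM and to 2727 and 5203 with no minimum, and with a fold of 8 to 464 and 456. Without the cell with most reads of each gene they were 589 and 369. The genes called changed as well as their number. Of the 889 and 621 genes, 687 and 470 were called again with equal weights and 688 and 470 with thinning. Without each gene's top cell 495 and 333 were called again, and with the TMM factor 889 and 585. The share of higher genes among all called went from 58.9% to 48.5% at 20 CPM, 34.4% with no minimum and 50.4% with a fold of 8. The TMM factor raised the median log2 ratio of all genes by 0.11, from 0.44 to 0.55. Of the 329 listed genes compared, 30.7% were higher and 24.6% lower, against 21.9% and 33.9% with no minimum and 19.1% and 19.8% with a fold of 8.

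Of 248 named genes past 4-fold, 222 to 248 stayed past it, depending on the alternative. With cells under the limit on mitochondrial reads, Sdpr (log2 ratio 1.76), Lamb3 (1.75) and Anxa3 (1.88) fell within 4-fold. With the TMM factor Fasn (-1.97) and Fos (-1.94) fell within 4-fold and Klf9 (2.04) passed it. In the first 10 chip columns Sema3f (0.04) and Itgb5 (1.56) fell within 4-fold. The sign changed for Krt14 (0.89), Thbd (0.30) and Grk6 (-1.11) in chip columns past the first 10, for Grk6 (-1.77) at an Ager limit of 10000 CPM and for Upk3b (0.71) without its top cell. The cause was not tested. No paired analysis was possible because all cells come from 1 mouse and no test was made.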
